A study of Mus musculus with 18 samples.

Results

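H3K9 acetylation and RNA level were set side by side, gene by gene, in the cortex of BAF155 cKO mouse embryos at E15.5 that had received Vehicle. All 4 RNA libraries and all 4 H3K9ac chromatin immunoprecipitation libraries labelled Vehicle were taken, 8 of the 18 samples of the series, and no treated sample was used. Each gene's mean RNA level was set against the number of H3K9ac peak lists, from 0 to 4, that held a peak within 1 kb of either end of the gene, and against the rank of that peak's fold enrichment and width within its list. This could be done for 35073 of the 47729 genes in the count files, those whose symbol matched a single RefSeq gene on chromosomes 1 to 19, X or Y (mm10), and 21101 of them were protein-coding.

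Smarcc1 encodes BAF155, a scaffold protein of the BAF complexes that move nucleosomes along DNA (the mammalian SWI/SNF family). By its title, the study is about histone H3 acetylation, basal progenitors of the neocortex and the gene Trnp1. All samples came from whole cortex, all carried the BAF155 cKO genotype, and the sources used here do not give the Cre driver, the deleted exons or the vehicle. Samples with an intact Smarcc1 gene were not analysed here, so the values describe the knockout cortex alone and none of them is a difference from normal cortex. Replicates are not stated to be separate embryos or litters, so each spread below is that between these samples, which may be technical. In whole tissue, fewer cells of a type and less RNA per cell cannot be told apart.

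H3K9ac is placed on nucleosomes by acetyltransferases such as those of the SAGA and ATAC complexes and removed by histone deacetylases. It is found around the start sites of active genes and at enhancers, where bromodomain proteins can read it. Mammalian promoters are often rich in CpG dinucleotides, and those of housekeeping and developmental regulator genes are usually CpG islands, whereas promoters of many genes of differentiated cells hold few CpGs.

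The promoters of 5 genes show the combinations met below. Each is the 250 bases before the annotated start of the gene, 5′ to 3′ on the gene's strand, from RefSeq in build GRCm38.p6 (mm10), in lower case with every CG dinucleotide in capitals. Smarcc1, the deleted gene (chr9:110131774-110132023, plus strand), and Sox11, a transcription factor gene of young neurons (chr12:27342719-27342968, minus strand), had a peak in 4 lists and hold 21 and 17 CGs. Fabp7, a fatty-acid binding protein gene of radial glia (chr10:57784673-57784922, plus strand), had a peak in 4 lists with 4 CGs. Hoxd1, a body-axis regulator not used in the forebrain (chr2:74762730-74762979, plus strand), had no peak in any list with 24 CGs. Hbb-bs, an adult beta-globin gene of red blood cells (chr7:103827929-103828178, minus strand), had RNA but no peak, with 2 CGs.
Smarcc1: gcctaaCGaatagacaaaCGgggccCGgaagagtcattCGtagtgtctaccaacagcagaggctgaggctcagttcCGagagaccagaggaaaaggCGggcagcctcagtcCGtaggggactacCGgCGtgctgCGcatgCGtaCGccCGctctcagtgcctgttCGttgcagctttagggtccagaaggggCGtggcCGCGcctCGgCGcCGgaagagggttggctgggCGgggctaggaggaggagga
Sox11: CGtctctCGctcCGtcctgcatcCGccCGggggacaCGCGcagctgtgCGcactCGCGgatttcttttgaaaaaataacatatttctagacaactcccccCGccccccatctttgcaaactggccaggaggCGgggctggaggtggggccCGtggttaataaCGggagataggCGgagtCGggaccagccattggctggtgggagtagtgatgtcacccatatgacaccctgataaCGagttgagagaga
Fabp7: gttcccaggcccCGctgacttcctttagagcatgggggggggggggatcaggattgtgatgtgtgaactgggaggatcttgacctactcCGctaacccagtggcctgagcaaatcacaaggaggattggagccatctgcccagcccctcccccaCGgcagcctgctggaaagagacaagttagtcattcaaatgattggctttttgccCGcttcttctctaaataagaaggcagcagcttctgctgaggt
Hoxd1: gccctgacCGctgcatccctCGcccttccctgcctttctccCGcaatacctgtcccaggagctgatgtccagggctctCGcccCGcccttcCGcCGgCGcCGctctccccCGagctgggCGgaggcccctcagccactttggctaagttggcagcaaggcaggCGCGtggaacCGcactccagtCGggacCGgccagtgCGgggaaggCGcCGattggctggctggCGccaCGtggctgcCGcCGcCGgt
Hbb-bs: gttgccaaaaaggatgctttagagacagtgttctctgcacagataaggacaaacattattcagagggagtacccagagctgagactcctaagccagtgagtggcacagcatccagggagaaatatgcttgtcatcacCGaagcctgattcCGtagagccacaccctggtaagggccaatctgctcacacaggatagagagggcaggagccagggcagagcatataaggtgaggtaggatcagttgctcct

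RNA totals were 12200426 to 15600340 counts per library. Levels are given in CPM, each library's counts set to a common total scaled by TMM (edgeR's normalization for composition), which is not corrected for transcript length, so CPM is compared between groups of genes and not read as an order of single genes. Between RNA libraries, Spearman's rho over expressed genes was 0.983 to 0.992. The H3K9ac lists rested on 11824246 to 24075842 tags and held 41987, 41331, 43645 and 22668 peaks. List 4 stood apart from the others. It had the most tags and the fewest peaks, its highest fold enrichment was 16.4 against 27.6 to 31.1 in the other lists, and 93.6% of the 2278 genes with a peak in exactly 3 lists lacked it in list 4. Of the peaks of list 4, 86.6% to 90.0% overlapped a peak of another list by at least 1 bp, so it was nearly a subset of the others. Shares that also required list 4 are therefore given with those over lists 1 to 3 where the difference is large.

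Smarcc1 (chromosome 9, 110132024 to 110240178) had 133, 151, 143 and 126 CPM in RNA libraries 1 to 4, and a peak at its start in 4 of 4 lists. A count over the whole gene does not check the deletion. The peak lay at the 98.6, 83.5, 87.8 and 62.4 percentile of fold enrichment in lists 1 to 4, where 100 is the highest peak of a list. Smarcc2, which encodes the paralogous subunit BAF170, had 677, 605, 588 and 485 CPM and a peak in 4 lists at the 97.8, 98.4, 97.7 and 81.8 percentile. Both genes were thus transcribed and acetylated at the start in every library, with list 4 lowest.

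Of the genes the study is about, some had a peak in every list and some did not. Pax6 and Sox2, transcription factor genes of apical radial glia, and Gli3, a Sonic hedgehog effector, had peaks in 4 lists, as did Mki67, a marker of dividing cells, and Bcl11b, a regulator of deep-layer projection neurons. Pax6 had 329, 390, 253 and 304 CPM and peaks 4242, 9392, 5334 and 1254 bp wide. Sox2 had 81.4, 130, 118 and 84.4 CPM and peaks 4737, 4119, 2040 and 1855 bp wide, each of them far above the median width of 258 to 293 bp in the lists. Gli3 had 58.0, 95.5, 49.8 and 48.8 CPM, Mki67 228, 331, 197 and 180 CPM, and Bcl11b 256, 334, 352 and 247 CPM. Library 2 was highest for Pax6, Sox2, Gli3 and Mki67, the progenitor and division genes of this set.

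Eomes, which encodes TBR2, the defining factor of basal progenitors, had 73.0, 98.4, 61.6 and 55.9 CPM, and a peak in lists 1, 2 and 3 that was only 148, 201 and 189 bp wide, at the 37.4, 63.1 and 42.5 percentile of fold enrichment. Tbr1, a deep-layer factor, had 254, 303, 267 and 202 CPM and a peak at its outermost start in lists 1 and 3 only, 155 and 256 bp wide. Trnp1, which encodes a nuclear protein of progenitors, had 15.0, 14.4, 12.5 and 12.1 CPM and no peak within 1 kb of either end of its span, and Hopx, a radial glia gene, had 11.6, 12.5, 7.88 and 11.4 CPM with a peak in lists 2 and 3. For several of these a peak lay at another start or inside the gene. It was found at a RefSeq promoter entry of the gene in 4 lists for Tbr1 and Hopx and in 2 for Trnp1, and inside Trnp1 in 3 lists. So 7 of these 12 genes had a peak at an outer end in 4 lists, and 8 in all of lists 1 to 3, against 68.2% and 79.8% of all genes at 1 CPM or more.

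Across all genes, the share with a peak rose with RNA level. Of 35073 genes, 30% had a peak in 4 lists and 43.9% in at least 1, and 39.0% reached a mean of 1 CPM, called expressed below. With 0 counts in all 4 libraries, 337 of 13053 genes (2.58%) had a peak in 4 lists and 7.23% in any. The share in 4 lists was 5.79% below 0.1 CPM, 14.8% from 0.1 to 1 CPM, 39.2% from 1 to 10 CPM, 75.4% from 10 to 100 CPM and 86.0% at 100 CPM or more. Taking each list alone, the share was 4.61% ± 1.15 of genes at 0 counts and 91.4% ± 3.56 of genes at 100 CPM or more (SD over 4 lists), and the values of the lists did not overlap between the levels.

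**Figure D1:**
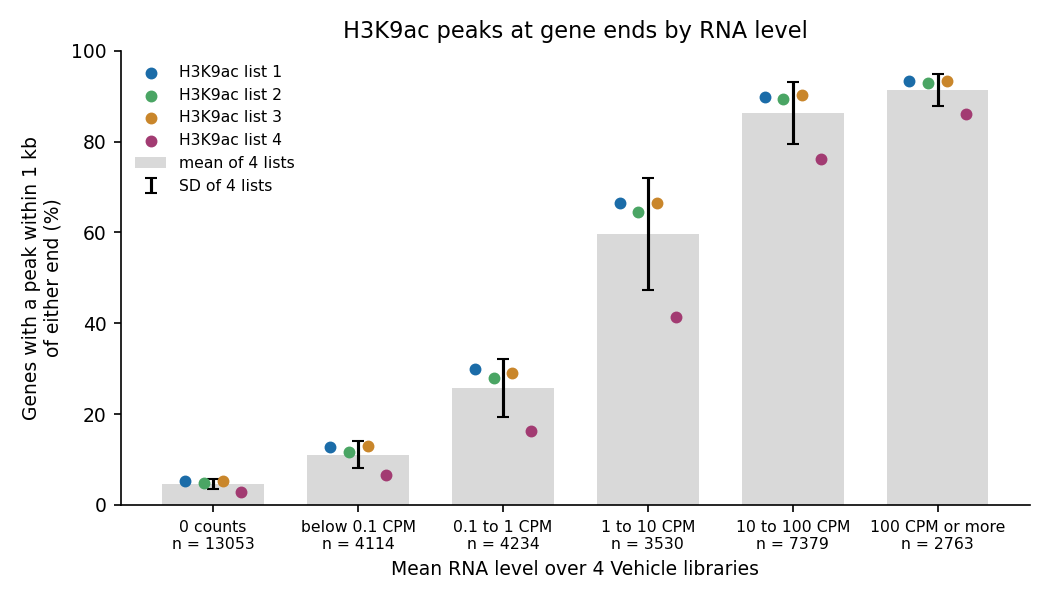
Share of genes with an H3K9ac peak within 1 kb of either end (vertical axis, percent) by mean RNA level in 4 Vehicle libraries (horizontal axis, CPM classes with the number of genes). Points are the 4 peak lists, bars their mean and error bars their SD. The share climbs from 4.61% at 0 counts to 91.4% at 100 CPM or more, and list 4 is the lowest point in every class.

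Expressed genes had a peak in 4 lists in 9326 of 13672 cases (68.2%), and in all of lists 1 to 3 in 79.8%. When the peak had to overlap the annotated end itself, the share was 6.64%. Seen from the other side, the median RNA level was 0 CPM for genes with no peak, 0.299 with a peak in 1 list, 1.33 in 2, 7.83 in 3 and 37.9 CPM in 4 lists. Spearman's rho between CPM and the number of lists was 0.758 over 35073 genes and 0.385 over the 13672 expressed ones. The genes share libraries, depth and base composition, and neighbours can share a peak, so no p-value is given.

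The mark sat at gene starts and hardly at their far ends. Among 8235 expressed genes with a known strand and a span over 10 kb, 66.8% had a peak within 1 kb of the start in 4 lists and 2.36% within 1 kb of the far end. Single lists gave 79.4% ± 7.75 at the start and 5.77% ± 1.91 at the far end (SD, n = 4 lists). In genes at 100 CPM or more, peaks covered the position 300 bp before the start in 39.7% ± 10.2 of genes, the start itself in 24.1% ± 10.1, and the position 300 bp inside the gene in 62.3% ± 12.2. The dip at the start was larger than the SD over lists against the position inside the gene, and list-to-list spread was wide. Cover also reached further into the gene at high RNA levels: 1 kb inside, it was 48.0% ± 10.7 at 100 CPM or more, 22.99% ± 7.30 from 10 to 100 CPM and 8.14% ± 3.03 from 1 to 10 CPM.

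**Figure D2:**
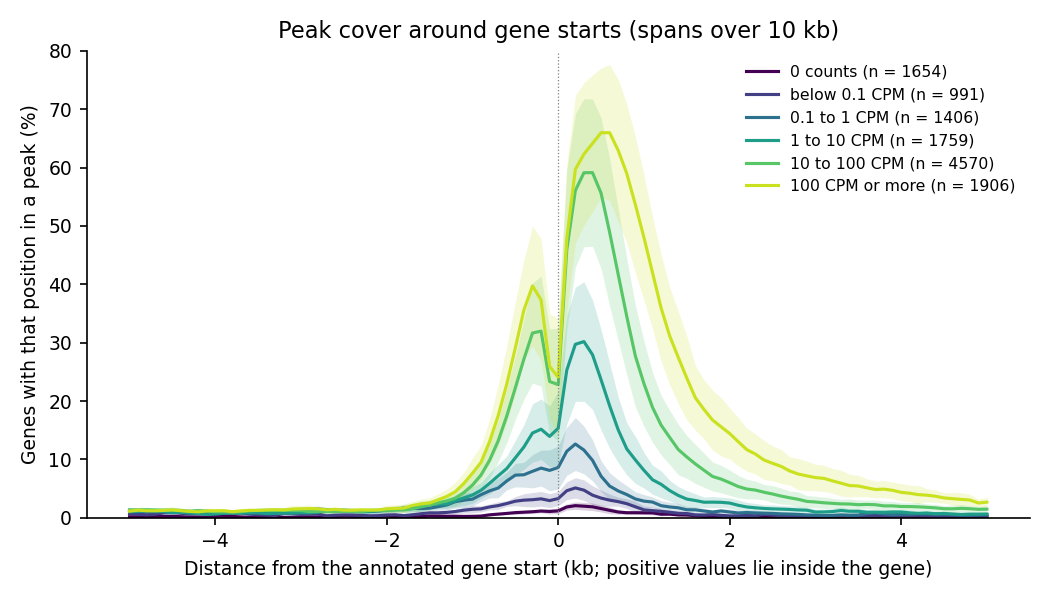
Share of genes (vertical axis, percent) whose position at each distance from the annotated start (horizontal axis, kb, positive inside the gene) lay in a peak, for spans over 10 kb. Lines are means of 4 lists for 6 RNA classes and bands their SD. In the classes from 10 CPM up, cover dips at the start, and above 100 CPM it still reaches 48.0% at 1 kb inside the gene.

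Among the 10526 genes with a peak in 4 lists, the size of the peak followed RNA level only loosely. Spearman's rho with CPM was 0.294 for the fold enrichment percentile and 0.247 for the width percentile, each averaged over 4 lists, while the percentiles of fold and width went together with a rho of 0.698. Over the 8920 protein-coding expressed genes of this set the values were 0.344 and 0.293. From the lowest to the highest decile of CPM, the median fold percentile went from 74.4 ± 10.1 to 91.6 ± 4.24 and the median width percentile from 73.5 ± 10.4 to 89.2 ± 4.97 (SD over lists). These ranges were similar to the spread between lists, which list 4 set, but the highest decile lay above the lowest in each of the 4 lists. Where the window touched no other gene, rho was higher, 0.442 for fold and 0.365 for width, and with a −log10 q of at least 5 it was lower, 0.189 and 0.150.

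**Figure D3:**
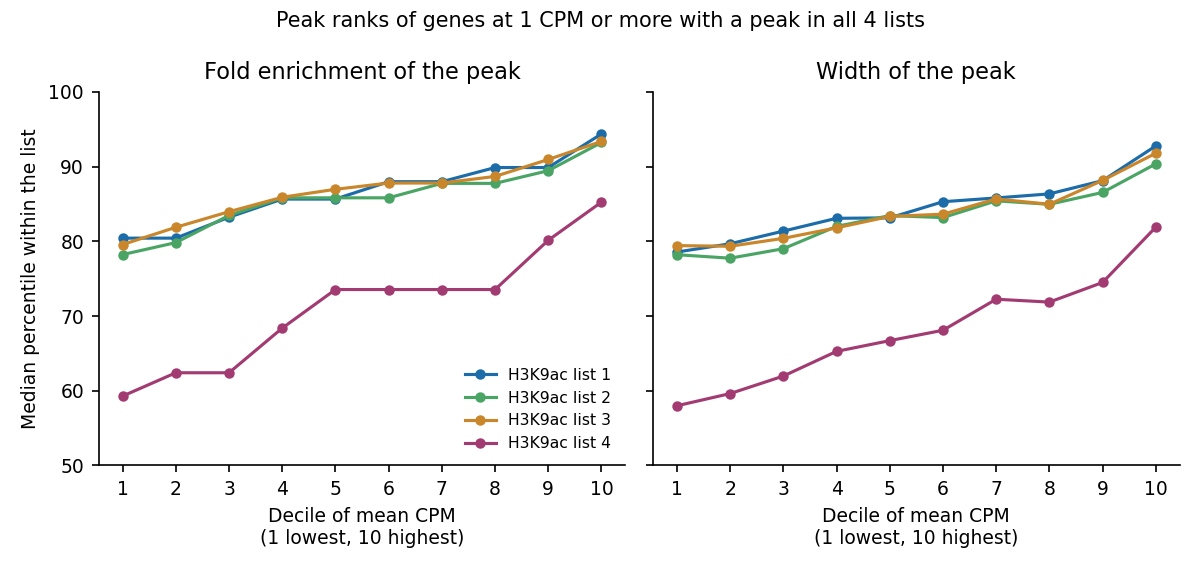
Median percentile of the peak's fold enrichment (left) and width (right) within its list (vertical axes) by decile of mean CPM (horizontal axes) for expressed genes with a peak in 4 lists. Each line is 1 list. All lines end higher than they begin, and list 4 lies below the others throughout.

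Several of the strongest peaks belonged to genes of the developing forebrain. Sox11 had 1233, 1564, 1209 and 988 CPM and a peak 3904, 5326, 6586 and 4611 bp wide, at the 99.8 percentile of fold enrichment or above in every list. Tuba1a, the main alpha-tubulin of young neurons, had 2832, 3081, 3564 and 3349 CPM and a peak 2529, 2021, 3001 and 1640 bp wide, with a lowest percentile of 99.7. The 10 protein-coding genes with the highest mean fold ranks also included Cd24a, a surface protein of young neurons, Kmt2e, Mex3b, Tia1, and the histone genes Hist1h2ao and Hist1h2bq, which share the same peak.

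Genes of transcriptional regulators were among those with the widest peaks. The 10 protein-coding genes with the widest ranks included Setd1b, a histone H3K4 methyltransferase gene, its neighbour Rhof, which shares the peak, Tnrc18, Sox11, Bcl11a, a zinc finger factor of projection neurons, Mn1, Ptprs, Bahcc1 and Anp32a. Bcl11a had 359, 370, 374 and 292 CPM and peaks 7456, 7440, 7976 and 2300 bp wide. Median CPM was 22.9 for genes with a mean width under 500 bp, 44.4 from 500 to 1000 bp, 63.6 from 1000 to 2000 bp and 114 from 2000 to 4000 bp. It was 14.2 for the 30 genes at 4000 bp or more, which held 11 protein-coding genes (median 325 CPM) and 9 microRNA genes. With peaks closer than 500 bp joined, a setting added after the data were seen, long acetylated stretches were found at Nfib (mean 18495 bp), Meis2 (17212 bp), Tnrc18 (14251 bp) and Pax6 (13258 bp).

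By width averaged over the 4 lists, the widest peaks lay at the genes of miR-9, which regulates neural progenitors, and these were picked out after their values were seen. In list 1 alone, the widest peak at a gene was at Meis2, at 11587 bp. The hairpins of Mir9-1, Mir9-2 and Mir9-3 had 0 counts in all 4 libraries. A microRNA is cut from a longer host transcript, and the hosts were expressed. C130071C03Rik, which spans Mir9-2, had 649, 512, 482 and 584 CPM and peaks 11102, 18079, 24005 and 10390 bp wide. Gm3764, at Mir9-1, had 668, 299, 294 and 475 CPM and peaks 7868, 9344, 17408 and 4415 bp wide. Mir9-3hg had 123, 106, 87.7 and 114 CPM and peaks 11573, 13246, 10972 and 5066 bp wide. Averaged over lists, the peaks of these hosts were 15894, 9759 and 10214 bp wide in that order, against 7094 bp at Mir125b-1 and 6872 bp at Setd1b, the next widest loci.

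The mature products are shown because they are the same from all 3 loci. In RefSeq (GRCm38.p6) the sequences are, 5′ to 3′, with the seed (bases 2 to 8) in capitals, and miR-9-5p lies at chr3:88215613-88215635, chr13:83738821-83738843 and chr7:79505279-79505301, all plus strand. miR-125b-5p, from Mir125b-1 (chr9:41581940-41581961, plus strand), has another seed, and its peak was 7712, 8209, 8392 and 4062 bp wide, again with 0 counts over the hairpin.
miR-9-5p: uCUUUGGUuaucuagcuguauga
miR-9-3p: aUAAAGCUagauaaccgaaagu
miR-125b-5p: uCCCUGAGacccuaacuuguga
The 3 genes of miR-124, the microRNA of differentiated neurons, also had peaks in 4 lists. Mir124a-1hg, the host of Mir124a-1, had 688, 261, 347 and 565 CPM and peaks 5656, 7310, 7299 and 1343 bp wide. RNA libraries 1 and 4 were the highest for this host as for Gm3764. Over all 1183 microRNA genes, 130 (10.99%) had a peak in 4 lists, against 30% of all genes, but 947 of the 1183 had 0 counts. Of these 947, 100 had a peak in 4 lists, against 2.58% of all genes at 0 counts. Another gene lay within the window of 1048 of the 1183. At 0 counts, 97 of 827 with another gene in the window had a peak in 4 lists, against 5.39% of all such genes. Without one, the count was 3 of 120, against 0.905%.

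Genes of the acetylation machinery were all expressed, and most were marked. Of 16 writers and adaptors, 13 had a peak in 4 lists and 15 in all of lists 1 to 3, against 68.2% and 79.8% of expressed genes. At matched RNA level the shares were near those of all genes. A peak in 4 lists stood at 7 of 9 from 10 to 100 CPM, against 75.4% of all genes. At 100 CPM or more it stood at 6 of 7, against 86.0%. Kat2a and Kat2b, the GCN5 and PCAF acetyltransferases that act on H3K9, are named with Hdac1 after their values were seen. Kat2a had 70.0, 61.4, 64.0 and 61.2 CPM and a peak in lists 1 to 3. Kat2b had 34.6, 29.3, 31.2 and 32.4 CPM and a peak in 4 lists at the 93.1, 97.2, 74.5 and 88.1 percentile of fold. Taf1, an X-linked TFIID subunit with bromodomains, had 135, 176, 155 and 123 CPM and was the only writer or adaptor with no peak at an outer end, although a peak lay at another RefSeq promoter entry in 3 lists.

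Of 17 deacetylases, which remove the mark, 12 had a peak in 4 lists and 14 in all of lists 1 to 3, shares near those of all expressed genes (68.2% and 79.8%). Hdac2, a class I enzyme, had 360, 484, 444 and 375 CPM with a fold percentile of 95.4, 94.8, 98.8 and 97.2. Hdac1, its close relative, had 21.8, 21.95, 19.4 and 22.2 CPM and a percentile of 91.6, 99.6, 97.7 and 95.3. High-ranking peaks thus stood at both genes in every list. The 3 without a peak were the class IIa genes Hdac4, Hdac7 and Hdac9, at 55.1 ± 4.84, 74.4 ± 16.3 and 32.9 ± 8.42 CPM (SD, n = 4), and each had a peak at another RefSeq promoter entry in 4 lists.

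Of 15 acetyl-lysine readers, 12 had a peak in 4 lists and 2 in none, against 68.2% and 11.5% of all expressed genes. Readers at 100 CPM or more had a peak in 4 lists in 9 of 11 cases, near the 86.0% of all genes. From 10 to 100 CPM, 3 of 3 readers had one, against 75.4% of all genes. Brd2, a BET protein gene, had 339, 386, 363 and 307 CPM and a fold percentile of 98.3, 99.001, 97.7 and 97.2. Brdt, the testis member of the BET family, had no peak at 7.97 ± 2.08 CPM. Of 28 BAF subunit genes, 25 had a peak in 4 lists and none lacked one in every list, with a median of 136 CPM. By RNA level, 8 of 11 had a peak in 4 lists at 10 to 100 CPM, against 75.4% of all genes. At 100 CPM or more the count was 17 of 17, against 86.0% of all genes. Smarca4, which encodes the ATPase BRG1, had 533, 673, 624 and 428 CPM and a fold percentile of 95.4, 98.1, 96.1 and 81.8.

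The labelled tissue was checked against its markers. Pax6, Sox2, Tbr1 and Bcl11b were all present in every library, whereas 36 of 39 Hox genes, which specify hindbrain, cord and trunk, had 0 counts and none of the 39 had a peak in any list. Over all genes at 0 counts, 92.8% had no peak in any list, so the lack of peaks was near that of any silent genes. Retina genes summed to 6.83 to 12.2 CPM over 14 genes. Genes of inhibitory neurons and the ganglionic eminence, which lies below the cortex and sends interneurons into it, summed to 1632 to 2034 CPM over 23 genes, with peaks in 4 lists at 16. All 23 genes of this lineage were expressed, and 69.6% with a peak in 4 lists was near the 68.2% of all expressed genes. Dlx1, a homeobox gene of that lineage, had 461, 433, 505 and 502 CPM and peaks 6593, 3866, 4572 and 1161 bp wide.

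Lists of the main cortical cell types lay on both sides of the share over all expressed genes, 68.2%. A peak in 4 lists stood at 22 of 27 radial glia genes, 13 of 20 basal progenitor genes, 9 of 15 deep-layer genes, 11 of 16 upper-layer genes and 22 of 26 pan-neuronal genes, with median levels of 103, 42.5, 93.6, 114.5 and 582 CPM. Of the radial glia and basal progenitor genes, 26 and 18 were expressed. At 100 CPM or more, where the share over all genes was 86.0%, the counts were 14 of 14, 3 of 3, 4 of 7, 7 of 10 and 21 of 24 in that order. Among expressed basal progenitor genes, the outer ends of Neurod4, a proneural factor gene, and Mgat4c carried no peak in any list, at 1.56 ± 0.537 and 9.99 ± 2.90 CPM (SD, n = 4). Fabp7, whose promoter is shown above, had 756, 706, 706 and 898 CPM and a fold percentile of 58.5, 50.8, 58.2 and 54.6, below the median of 81.5 for genes with a peak in 4 lists. Mef2c, a neuronal factor, had 220, 238, 240 and 165 CPM and no peak at its outer ends, but a peak at another promoter entry in 4 lists. Lmo3, a deep-layer gene, had 141, 161, 188 and 169 CPM and none at any entry.

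Several gene lists had lower shares with a peak than all genes at the same RNA level, among them those of endothelial cells, microglia, Cajal-Retzius cells and erythroid cells. Among all genes at 10 to 100 CPM, 75.4% had a peak in 4 lists and 7.55% had none. At the same level, 2 of 15 endothelial and pericyte genes had a peak in 4 lists and 7 had none, 0 of 3 microglia genes and 0 of 7 Cajal-Retzius genes had a peak in 4 lists, and 0 of 4 erythroid genes. At 1 to 10 CPM, where 39.2% of all genes had a peak in 4 lists, 0 of 15 microglia genes did, and 12 had no peak in any list. The microglia list summed to 95.7 to 123 CPM over 20 genes, the endothelial list to 405 to 583 CPM over 20, the erythroid list to 354 to 653 CPM over 14, and no member of the 3 lists was at 0 counts in all libraries. The shortfall was not particular to these cell types. At 10 to 100 CPM, 2 of 14 imprinted genes, 2 of 8 clustered protocadherins and 10 of 18 glutamate and GABA receptor subunits had a peak in 4 lists. At 100 CPM or more, where 86.0% of all genes had one, so did 4 of 10 imprinted genes, 4 of 7 deep-layer genes and 7 of 10 upper-layer genes. A peak in all of lists 1 to 3 stood at 3 of 20 endothelial, 1 of 20 microglia, 3 of 11 Cajal-Retzius and 3 of 14 erythroid genes, counted over all RNA levels.

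Csf1r, the growth factor receptor of microglia, had 13.6, 16.1, 18.1 and 14.6 CPM and no peak at its ends. Rgs5, a pericyte gene, had 111, 148, 155 and 139 CPM and no peak at an end, at any promoter entry or in its body. Hbb-bs had 158, 109, 179 and 263 CPM and likewise none. Kdr and Slc2a1, an endothelial receptor gene and a glucose transporter gene, were the endothelial members with a peak in 4 lists. Promoter CpG content was low in the microglia and endothelial lists, but not in these alone. The median ratio of observed to expected CpG was 0.240 for 13 expressed microglia genes with a promoter entry. It was 0.450 for 14 endothelial ones, against 0.768 for all expressed genes. For 15 expressed pan-neuronal genes with an entry it was 0.410, and 22 of the 26 expressed genes of that list had a peak in 4 lists. The part of CpG content in the result was not tested.

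Cajal-Retzius cells, the Reelin-secreting neurons of the cortical surface, differed from the microglia and endothelial lists in promoter CpG content. The 7 of their 11 expressed genes with a promoter entry had a median ratio of 1.01. Reln had 523, 549, 510 and 491 CPM and a peak in lists 1, 2 and 3 at the 64.7, 28.4 and 42.5 percentile of fold, and none in list 4. Of the 11 genes, none had a peak in list 4 and 45.5%, 45.5% and 54.5% in lists 1 to 3, so the count of 0 in 4 lists is set by list 4, and 3 of 11 had a peak in each of the other lists.

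**Figure D4:**
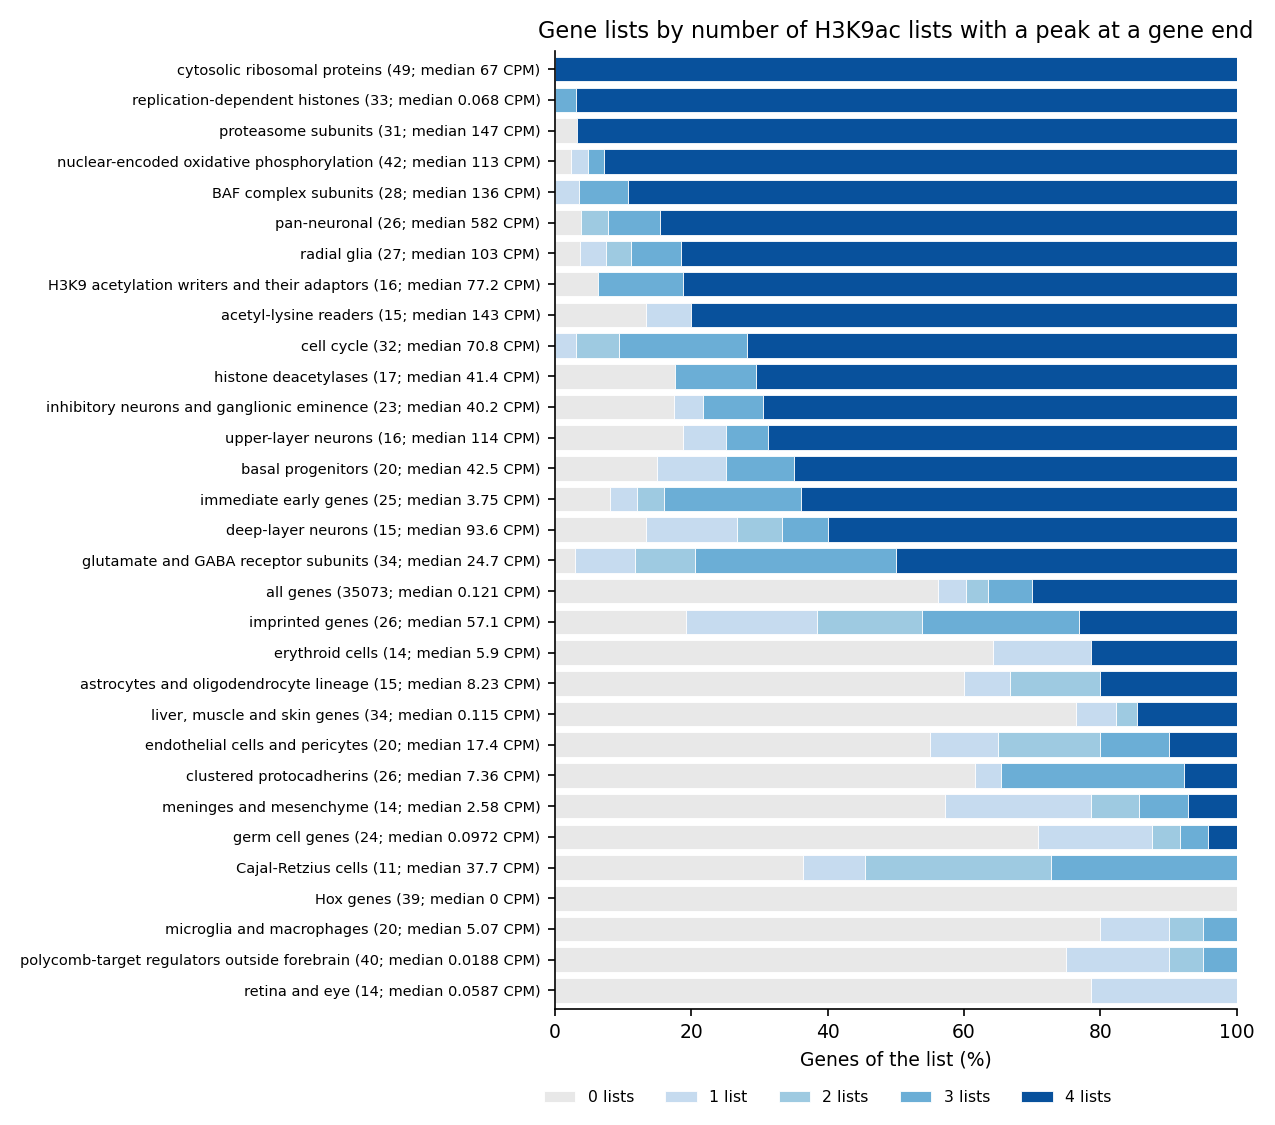
Share of each gene list's members (horizontal axis, percent) by the number of H3K9ac lists with a peak at a gene end (colours, 0 to 4), with the number of genes and the median CPM beside each list. Ribosomal protein genes are marked in 4 lists throughout, replication-dependent histones nearly so at a median of 0.0680 CPM, and Hox, microglia, retina and Cajal-Retzius genes have no member in 4 lists.

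All 49 cytosolic ribosomal protein genes had a peak in 4 lists, including 13 at 1 to 10 CPM, where 39.2% of all genes had one. A peak in 4 lists also stood at 39 of 42 nuclear genes of oxidative phosphorylation and 30 of 31 proteasome genes. At 10 to 100 CPM these counts were 14 of 16 and 6 of 6, against 75.4% of all genes. At 100 CPM or more they were 24 of 25 and 24 of 25, against 86.0% of all genes. Reads of ribosomal protein genes can be shared with their many processed copies, so their CPM is uncertain. Cell cycle genes had a peak in 4 lists at 23 of 32, near the 68.2% of all expressed genes, and in all of lists 1 to 3 at 28. At 10 to 100 CPM the count was 15 of 23, against 75.4% of all genes. Glutamate and GABA receptor subunits had one in 17 of 34, with 25 in all of lists 1 to 3, and imprinted genes in 6 of 26, with 12, so that list 4 set much of these counts. Immediate early genes, which respond to neuronal activity, had a median of 3.75 CPM and a peak in 4 lists at 16 of 25, with 21 in all of lists 1 to 3. Of the 17 expressed ones, 14 had a peak in 4 lists, against 68.2% of all expressed genes. By RNA level, the counts were 5 of 8 at 1 to 10 CPM, against 39.2% of all genes, and 9 of 9 at 10 to 100 CPM, against 75.4%. Meg3, a maternally expressed noncoding RNA, had 1370, 500.1, 810.2 and 1270 CPM and a peak in lists 1 to 3.

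Some genes with little or no RNA carried a peak. Replication-dependent histone genes, whose transcripts end in a stem loop and not a poly(A) tail, had a peak in 4 lists in 32 of 33 cases at a median of 0.0680 CPM, and a median fold percentile of 94.7. Of all 63 genes with a Hist symbol, 24 had 0 counts, and 22 of these 24 had a peak in 4 lists. Of the 337 genes at 0 counts with a peak in 4 lists, 181 shared it with an end of an expressed gene and 198 (58.8%) overlapped another RefSeq gene, while 98 did neither. Over all 13053 genes at 0 counts, 34.3% overlapped another RefSeq gene. Where the window touched no other gene, 0.905% of genes at 0 counts had a peak in 4 lists, against 62.5% of expressed genes.

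Peaks were scarce at olfactory and vomeronasal receptor genes, which serve sensory neurons of the nose. Of 1571 such genes, 3 had a peak in any list and 1517 had 0 counts. Among 40 developmental regulators outside the forebrain, 30 had no peak, 18 had 0 counts and none had a peak in 4 lists, and in 34 liver, muscle and skin genes 26 had no peak. Over all genes below 1 CPM, where 36 of the 40 and 30 of the 34 lay, 84.7% had no peak. No peak was found at 17 of 24 germ cell genes, of which 18 lay below 1 CPM. It was lacking at 8 of 14 meningeal and mesenchymal genes and 9 of 15 genes of astrocytes and the oligodendrocyte lineage, against 56.1% of all genes. Of 26 clustered protocadherins, 16 had none, and 24 were expressed. Among expressed genes alone, of which 11.5% had no peak, the lists lacked one more often. The counts were 2 of 6 germ cell, 5 of 8 meningeal and mesenchymal, 5 of 10 astrocyte and oligodendrocyte lineage and 14 of 24 protocadherin genes. Pseudogenes with a mean of 1 CPM or more had a peak in 4 lists in 5 of 137 cases (3.65%), whereas expressed long noncoding RNA genes had one in 64.3% and expressed protein-coding genes in 69.2%.

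Most abundant genes without a peak at an outer end had one elsewhere in the gene. At 100 CPM or more, 149 of 2763 genes had no peak at an end in any list, and 133 of the 149 had a peak inside the gene in 4 lists. The share of all genes at this level with a peak inside the gene is not given here. Whether 133 of 149 is unusual for abundant genes therefore cannot be said. Hnrnph1, a splicing regulator, led them with 1387, 1146, 1080 and 1182 CPM, and Mapt, which encodes the axonal protein tau, had 1011, 1196, 1264 and 929.6 CPM. Each had a peak in its body in 4 lists, and at Hnrnph1 another RefSeq promoter entry carried it. The 10 most abundant also included Rbfox2, Flna, Rad21, Zfp57, App, Gramd1a and Trip12. Counting every RefSeq promoter entry, 8 of 2212 genes at this level with an entry lacked any peak. They were 9330159F19Rik, Hbb-bs, Lmo3, Rgs5, Glra2, Zcchc12, Zc3h14 and Tenm3, named after their values were seen.

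Promoter sequence moved with the mark beside RNA level. In the 300 bases from 250 before to 50 after the start, the median ratio of observed to expected CpG was 0.195 for 8120 genes with no peak and 0.798 for 8208 genes with a peak in 4 lists. The share of genes with a peak at the start in 4 lists went from 2.93% at a ratio below 0.2 to 79.7% at 1 or more. Within an RNA class the trend was still seen: at 10 CPM or more the share over single lists went from 42.8% ± 5.53 to 92.05% ± 4.42, and at 0 counts from 0.877% ± 0.254 to 52.2% ± 13.5 (SD, n = 4 lists). At a ratio below 0.2 it also depended on RNA, being 0.877% at 0 counts and 42.8% at 10 CPM or more. The class at 0 counts with a ratio of 1 or more held 34 genes, and 10 of them had a peak in 4 lists.

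**Figure D5:**
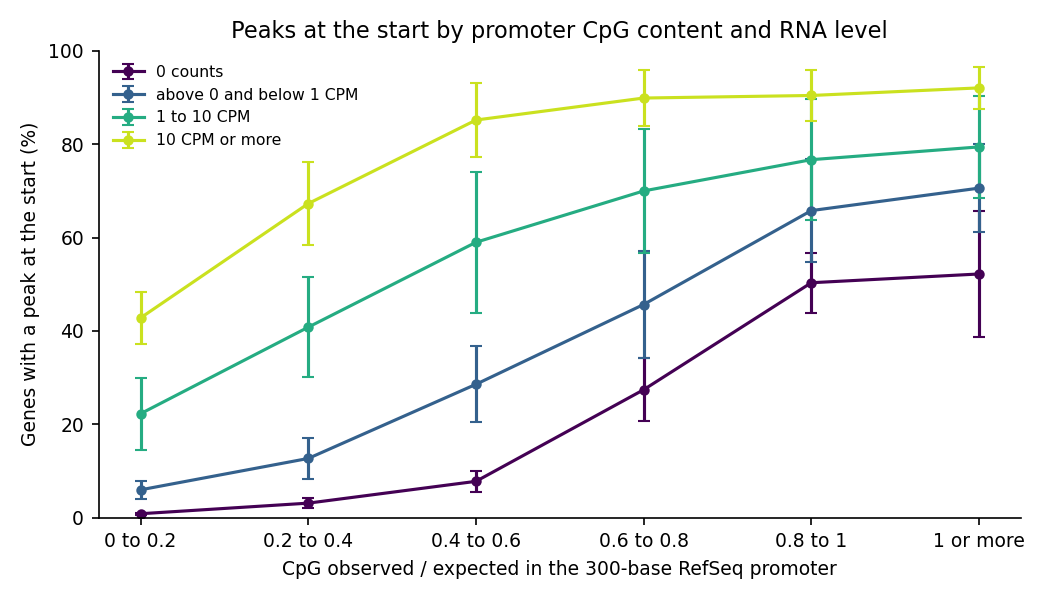
Share of genes with a peak at the start (vertical axis, percent; mean and SD of 4 lists) by the ratio of observed to expected CpG in the 300-base promoter (horizontal axis) for 4 RNA classes (colours). At the lowest ratio the share is 0.877% for genes at 0 counts and 42.8% at 10 CPM or more, and at the highest it is 52.2% and 92.05%.

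Short motifs were counted on both strands of the same 300 bases. The GC box, GGGCGG, was in 44.2% of 19735 promoters, in 68.3% of the 8017 with a peak at the start in 4 lists and in 15.7% of the 8560 with none. The TATA box, TATAAA, went the other way, with 12.9%, 6.14% and 21.1%. The CCAAT box, CCAAT, differed little, with 38.6%, 39.4% and 38.7%. The ETS motif, CCGGAAGT, was in 4.99%, 9.54% and 1.12%, and the cyclic AMP response element, TGACGTCA, in 2.27%, 3.77% and 0.83%. Among expressed genes, 7399 promoters had a peak at the start in 4 lists and 1266 had none. Between these, the gaps were smaller except for the CCAAT box. The GC box was in 69.5% and 41.1%, the TATA box in 5.64% and 11.5%, and the CCAAT box in 39.5% and 35.9%. The ETS motif was in 10.1% and 2.37%, and the response element in 3.81% and 1.66%. The GC box, the ETS motif and the response element each contain a CG, so their counts overlap with CpG content.

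Genes on the X chromosome showed lower shares with a peak than autosomal genes, at a similar median RNA level. A peak in 4 lists stood at 153 of 495 expressed X-linked genes (30.9%) and at 69.6% of 13177 autosomal ones, and in all of lists 1 to 3 at 61.2% and 80.5%, with medians of 32.1 and 33.1 CPM. The gap was largest in list 4, with 31.9% on X and 70.6% on autosomes. In lists 1, 2 and 3 it was 71.5%, 69.3% and 70.7% on X against 85.0%, 84.2% and 85.2%, so the share on X was the lower one in every list. At 100 CPM or more, lists 1 to 3 gave 86.1% ± 2.29 on X and 93.4% ± 0.142 on autosomes (SD, n = 3 lists). Single autosomes ranged from 59.3% on chromosome 7 to 76.1% on chromosome 16 over 4 lists.

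The sex of the embryos was not labelled. Xist, the RNA that silences an X chromosome in females, had 3148, 2118, 1789 and 3151 CPM in RNA libraries 1 to 4, and Y-linked genes summed to 3.85, 5.60, 0.976 and 1.36 CPM. Peaks on chromosome Y numbered 21, 26, 4 and 0 in lists 1 to 4. Without a label that ties RNA and chromatin to the same embryos, the part of these in the X-linked result was not tested. The median CpG ratio was also lower on X, 0.660 against 0.772.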

How the data were processed

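Whole embryonic cortex was profiled by RNA sequencing (4 Vehicle libraries) and H3K9ac chromatin immunoprecipitation (4 Vehicle lists). The authors deposited raw read counts per Ensembl gene, whole numbers in the files. The kit, TruSeq RNA v2 per the labels' protocols, does not mark strand, so antisense and overlapping genes cannot be told apart. Lines for unassigned reads sum to 0. Build mm10 and SAMtools are named in the submitters' processing notes; the aligner, counter and annotation: not given in the sources used here. Per the file headers, MACS2 (version 2.1.0.20140616) called peaks in each sample against the same input of 18937878 tags at a q limit of 0.1. The deposited peak values are pileup signal, fold enrichment, a ratio over local background, −log10 p and q, and width in bp, all the authors' own, and they served to order or filter the peaks of that list alone.

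CPM were computed with edgeR 4.0.16 (R 4.3.3) on TMM-scaled totals, and the rest with Python 3.11.15, pandas 2.3.3 and scipy 1.17.1. Gene spans and promoters came from RefSeq GRCm38.p6 by symbol, and 19735 genes matched a promoter entry with a strand. Where several peaks lay in the window, the one with the highest fold enrichment was used. Exon lengths were not used here, so genes were ranked by CPM and not per length. The code was tested on simulated data. No test between groups was made, so no p-value is given, and spreads are SD over 4 libraries or lists and cover counting and sample variation together. RNA replicates differed by more than counting noise (chi-square per degree of freedom 10.05 to 28.5). Across genes, RNA level and fold rank of samples with the same number did not deviate together (Pearson's r −0.0195 to 0.0296 over 9326 genes). Y-linked RNA and peaks on chromosome Y were both higher at numbers 1 and 2 than at 3 and 4. Whether equal numbers mean the same embryos was not tested, so the numbers were not used to pair samples.

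The gene set and the 31 gene lists were chosen with earlier results of these data known. Named genes were those of interest to the study, up to 3 most abundant members of each list, expressed members without a peak, and the 10 protein-coding genes leading by abundance with or without a peak, by fold rank, by width rank, or with a peak and 0 counts. Alternatives covered scaling, low-count filter, gene set, window, gene end, peak threshold, choice of peak, shared windows, joined peaks, promoter entries and leaving out each library. A few genes that these rules select are not reported here.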

Additional observations from a re-analysis of the deposited data

Results flagged for a closer look

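In groups of 4 values, the gap between the highest or lowest value and its nearest neighbour was divided by the whole range, and a value was singled out where this passed Dixon's critical value for 4 values. Chance singles out about 1 group in 20, and 17 of 91 groups were singled out here, most of them in the H3K9ac lists. List 4 had 22668 peaks and 10805 genes with a peak. It also had the lowest share of expressed genes with a peak, 69.2%, and with a peak at the start, 67.7%. Its Spearman's rho between CPM and the presence of a peak was 0.670, and between CPM and fold rank 0.259.

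Among single genes, list 4 had the lowest fold percentile at Smarca4 and at Smarcc2, 81.8 each, and at the miR-9 host C130071C03Rik, 99.8. It had the lowest width percentile at Pax6 (98.7), Bcl11a (99.8), Dlx1 (98.4), Mir124a-1hg (98.9) and Smarca4 (28.1). List 1 had the lowest width percentile at C130071C03Rik (99.995) and at Brd2 (53.4). In RNA, Hdac1 was low in library 3 at 19.4 CPM.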

How the results depend on the processing

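No result changed direction under any alternative. The share of expressed genes with a peak in every list (68.2%) was 6.64% with a window of 0 kb, 76.2% with 5 kb, 45.9% with a −log10 q of at least 5, and 68.0% to 79.8% when 1 library was left out, the highest without list 4. The share of genes at 0 counts with a peak in any list (7.23%) was 2.84% at 0 kb, 13.2% at 5 kb, 4.16% at the stricter q, 4.65% with equal numbers of peaks, 3.804% where the window touched no other gene, and 6.29% to 7.77% with 1 library left out. Spearman's correlation between CPM and number of lists (0.758) was 0.372 over genes kept by filterByExpr, 0.449 at 0 kb, 0.795 with any promoter entry, and 0.752 to 0.760 with 1 library left out. The correlation with fold rank (0.294) was 0.103 at 0 kb, 0.189 at the stricter q, 0.442 where the window touched no other gene and 0.289 to 0.371 with 1 left out; that with width rank (0.247) was 0.0617, 0.150, 0.365 and 0.240 to 0.314. The share with a peak at the start (66.8%) was 6.02% at 0 kb, 44.7% at the stricter q and 66.7% to 78.8% with 1 left out. The cause was not tested. Joined peaks and promoter entries were added after the data were seen. CPM per kb of exon was not run, filterByExpr gives no value for genes at 0 counts, and the widest-peak choice bears only on the rank correlations. No paired analysis was possible because RNA and H3K9ac are different measurements and no test compared groups.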

Other observations

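RNA libraries 1 and 4 had higher values than libraries 2 and 3 for several transcripts, picked out after their values were seen. Mitochondrial genes took 2.86% and 3.36% of counts in libraries 1 and 4 against 1.6% and 2% in libraries 2 and 3. Gria2, a glutamate receptor subunit gene, had 1222 and 971 CPM against 655 and 651. Tia1, which encodes an RNA-binding protein, had 773 and 691 CPM against 463 and 454. Meg3, Xist, Gm3764 and Mir124a-1hg, given above, had the same order. The peaks of these genes were measured in other libraries, so no RNA library can be set against its own chromatin.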
